A study of Mus musculus with 6 samples.

Results

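BH3-only genes encode the proteins that start the mitochondrial form of cell death. The 8 described here, Bcl2l11, Bbc3, Bid, Pmaip1, Bmf, Bad, Bik and Hrk, were chosen by name as members of that family, out of 55573 genes counted in mouse regulatory T cells (Tregs). The family was taken up with the genotype differences of Bbc3 and Bcl2l11 in these libraries already known, so the differences between genotypes are given as a description and support nothing further. Of the 8 genes, 6 passed the filter on low counts, and Bik and Hrk did not. That filter needed a gene to be counted in only enough libraries for 1 genotype, and it left 13347 genes to test.

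BH3-only proteins carry a single short helix, the BH3 domain, which docks into a groove of BCL-2 and its relatives. Pro-survival relatives such as BCL-2, BCL-XL and MCL-1 hold the pore-forming proteins BAX and BAK in check. BH3-only proteins occupy the groove of the pro-survival proteins, and those often called activators (BIM, PUMA and BID) can also engage BAX and BAK directly. The others, often called sensitizers, act mainly by binding pro-survival proteins. In T cells BIM is known for removing cells deprived of cytokine and cells that react against self, and Tregs are known to be sensitive to the balance of BIM and MCL-1. PUMA and NOXA are encoded by classical targets of p53, and FOXO transcription factors are known to act on the genes of BIM and PUMA.

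The cells were Tregs sorted from the spleens of bi-parental bone marrow chimeras, mice whose blood cells derive from transplanted marrow, with a stated purity of over 90%. Each group had 3 libraries, wild type or Nfkb2-/- (knockout of Nfkb2, which encodes p100 of the NF-kB family), and all cells were kept for 2 h in culture medium before lysis, with no other treatment. The labels call the libraries biological repeats. Donor sex, age, strain, the markers used for the sort, the mice behind each library and the cells the hosts kept are not given in the sources used here. In such bulk samples fewer cells of a type and less RNA per cell cannot be told apart.

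The libraries held 12005273 to 17278521 counts. Nfkb2 was lower but present in the Nfkb2-/- libraries, at 269 to 324 CPM (counts scaled to a common library size by the TMM method) against 545 to 558 CPM in wild type. The Treg gene Foxp3 ran from 407 to 622 CPM, and all 8 Treg and T cell markers examined were present in each library. Xist, the transcript of the silenced X chromosome, was at 592 to 883 CPM in Nfkb2-/- and 1.94 to 16.5 CPM in wild type, and the sum of 4 Y-linked genes was 40.0 to 275 against 465 to 498 CPM. Sex and genotype therefore cannot be told apart in the comparisons here. Each Nfkb2-/- library held both kinds of RNA, with 841, 883 and 592 CPM of Xist in replicates 1 to 3. The Y-linked sum in the same libraries was 40.0, 138 and 275 CPM. Whether these libraries mixed cells of both sexes, or of both genotypes, was not tested. The 19 B cell markers, none of them at 0 throughout, summed to 572 to 638 CPM in Nfkb2-/-, and to 415, 1200 and 1100 CPM in wild-type replicates 1 to 3. Of the 18 that were tested, 2 were called lower in Nfkb2-/- and 0 higher, with a median log2 fold change of -2.14. Sums over 6 dendritic cell markers (88.8 to 128 against 23.7 to 59.1 CPM) and 5 NK cell markers (17.5 to 25 against 8.68 to 13.8 CPM) were higher in each Nfkb2-/- library. In the Nfkb2-/- libraries each sum was mostly 1 gene. Zbtb46 (86.8 to 118 against 16.5 to 42.1 CPM) made up most of the first and Eomes (15 to 21.8 against 4.26 to 7.6 CPM) most of the second. That did not hold in every wild-type library: Zbtb46 was 24.9 of 59.1 CPM in replicate 2, and Eomes 4.26 of 8.68 CPM in replicate 1. The ranges of the other 5 dendritic cell markers overlapped between genotypes, and the NK cell marker Klra8 was at 0 in all Nfkb2-/- libraries. Wild-type replicate 1 stood apart from every other library, with 66.9 to 106 for the chi-square per degree of freedom of its counts against theirs, while all other pairs had 5.82 to 48.6.

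The start-site sequences of the genes that were lowest relative to wild type, Bbc3 and Bcl2l11, are shown first, since both have a match to the FOXO core motif. RefSeq promoters (GRCm38.p6) matched 6 of the 8 genes, with 12 start sites among them. Pmaip1 and Bik were not matched. Each window below is the 250 bases before a start site on the plus strand, and holds no exon base of the GENCODE annotation. Capitals mark TGTTTAC or its reverse complement GTAAACA (the FOXO core, searched on both strands) in the first pair of windows.

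Bbc3, second start site, chr7:16310011-16310260: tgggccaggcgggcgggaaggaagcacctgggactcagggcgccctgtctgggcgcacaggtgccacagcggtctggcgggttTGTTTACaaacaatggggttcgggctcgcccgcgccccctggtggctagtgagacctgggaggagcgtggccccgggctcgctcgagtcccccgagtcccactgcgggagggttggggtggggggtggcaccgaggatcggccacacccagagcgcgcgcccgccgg
Bcl2l11, first start site, chr2:128125788-128126037: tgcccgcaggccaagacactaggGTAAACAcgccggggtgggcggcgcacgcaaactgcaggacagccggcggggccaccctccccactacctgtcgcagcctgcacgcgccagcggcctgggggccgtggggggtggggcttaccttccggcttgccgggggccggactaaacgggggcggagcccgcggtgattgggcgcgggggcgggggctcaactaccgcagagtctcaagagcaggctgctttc

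The FOXO core began 167 bases before the second start site of Bbc3 and 227 bases before the first start site of Bcl2l11. No window of Bid, Bad, Bmf or Hrk held it. Over all promoters of the same length it stood in 3.17% of 32851 windows, or in at least 1 window of 3.54% of 27025 genes. In the next window of Bbc3 the capitals mark matches to the 10-base NF-kB consensus, 1 on each strand, which overlap.

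Bbc3, first start site, chr7:16309333-16309582: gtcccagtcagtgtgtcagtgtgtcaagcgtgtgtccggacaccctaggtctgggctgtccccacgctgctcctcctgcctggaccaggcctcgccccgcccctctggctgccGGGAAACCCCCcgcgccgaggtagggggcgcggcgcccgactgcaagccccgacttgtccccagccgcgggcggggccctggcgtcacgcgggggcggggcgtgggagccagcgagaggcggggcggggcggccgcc

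The NF-kB consensus stood in 3.9% of all windows, or in at least 1 window of 4.46% of all genes. Among the 6 genes with windows it stood in Bbc3 alone. A 10-base p53 element stood in a window of Bmf, in 7.13% of all windows and in at least 1 window of 8.2% of all genes. The GC box GGGCGG, searched on both strands, was in at least 1 window of 5 of the 6 genes and of 35.4% of all genes (32.7% of all windows). The E-box CACGTG was before the third start of Bbc3, in 6.02% of all windows and in at least 1 window of 6.86% of all genes. The TATA box TATAAA was in 0 of the 12 windows and in 12.4% of all. These matches are letters in a window, not evidence that a factor binds there.

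**Figure D1:**
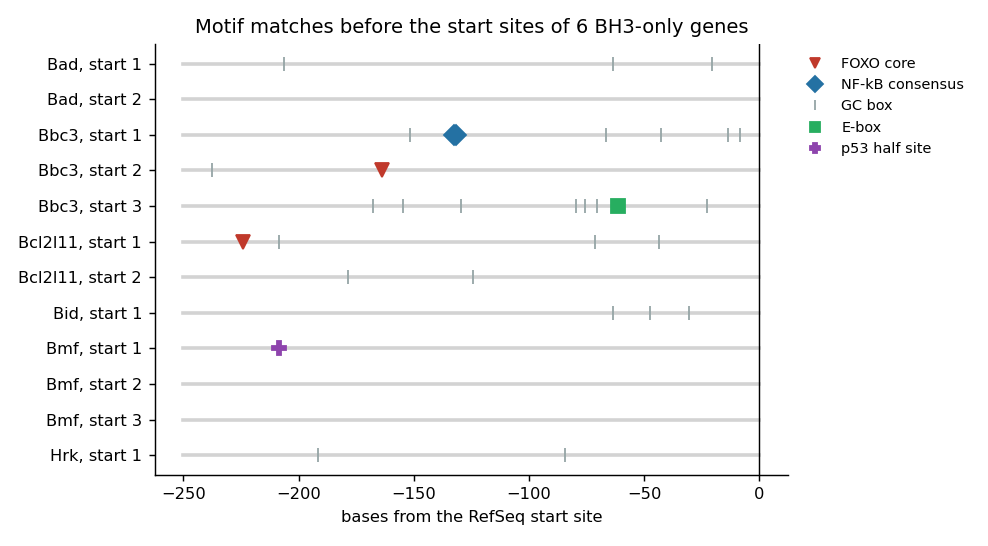
Motif matches in the 250 bases before the 12 RefSeq start sites of 6 BH3-only genes, by distance from the start site in bases, with start sites numbered by coordinate. Each mark is a match on either strand; the FOXO core is seen before 1 start of Bbc3 and 1 start of Bcl2l11.

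Bcl2l11, Bbc3 and Bid encode the activators BIM, PUMA and BID. Each Nfkb2-/- library had less Bcl2l11 and Bbc3 than all wild-type libraries, and the means were 58.4% and 50.4% of the wild-type mean. Bid differed less and its genotypes overlapped.

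Bcl2l11 (ENSMUSG00000027381; GRCm38 chromosome 2, 128126038 to 128162547, plus strand) measured 163, 138 and 142 CPM in Nfkb2-/- replicates 1 to 3, against 287, 218 and 252 CPM in the same-numbered wild-type libraries. The highest Nfkb2-/- library lay 55.4 CPM below the lowest wild-type library. Mean levels of 147 ± 13.2 and 252 ± 34.5 CPM (SD, n = 3 each) correspond to a log2 fold change of -0.78 (SE 0.143, 95% interval -1.11 to -0.44). BIM binds all the main pro-survival proteins, and its transcript was the most abundant of the activators by CPM in each of the 6 libraries.

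Bbc3 (ENSMUSG00000002083; chromosome 7, 16308393 to 16318205, plus strand) measured 20.1, 16.7 and 19.2 CPM for Nfkb2-/-, against 44.4, 32.0 and 34.8 CPM for wild type. The genotypes were separated by 11.9 CPM, and wild-type replicate 1 was highest for Bbc3 as for Bcl2l11. Means of 18.7 ± 1.78 and 37.0 ± 6.51 CPM (SD, n = 3 each) gave a log2 fold change of -0.99 (SE 0.173, 95% interval -1.39 to -0.59). The ratio of Bbc3 to Bcl2l11 CPM ran from 0.121 to 0.135 in Nfkb2-/- and from 0.138 to 0.155 in wild type.

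In the edgeR quasi-likelihood fit of all genes, with a Benjamini-Hochberg adjusted p under 0.05 as the threshold, Bbc3 and Bcl2l11 were 2 of 54 genes called lower (adjusted p = 0.0396 and 0.0483). That is 0.405% of the genes tested. No BH3-only gene was called higher, against 1.01% of all genes. An unadjusted p under 0.05 was found for 2 BH3-only genes and for 13.6% of all genes. DESeq2, limma-voom and edgeR with the replicate number as a block also called 2 lower and 0 higher, where they called 1.89%, 0.33% and 0.697% of all genes lower. Leaving out 1 library changed the calls. With Nfkb2-/- replicate 1, 2 or 3 left out, the edgeR adjusted p was 0.139, 0.245 and 0.214 for Bbc3 and 0.136, 0.288 and 0.274 for Bcl2l11. Without wild-type replicate 2 it was 0.0708 and 0.0722, and without wild-type replicate 3 it was 0.0878 and 0.115. Without wild-type replicate 1 both were called (0.0022 for Bbc3 and 0.00351 for Bcl2l11), where 4.44% of 13651 genes were called lower.

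The fitted differences of both genes kept their sign in each of these fits, from -1.09 to -0.84 for Bbc3 and from -0.87 to -0.67 for Bcl2l11 on the log2 scale. A fit with the level of the Y-linked genes as a covariate called 6 of all genes higher and 1 lower. That level was lower in every Nfkb2-/- library, so the fit can hardly separate it from genotype. The differences of Bbc3 and Bcl2l11 were -1.08 and -0.95 in it, and the edgeR adjusted p was 0.513 and 0.453. With the B cell marker level as a covariate they were -1.10 and -0.86 (edgeR adjusted p = 4.93e-05 and 0.000138), in a fit that called 11.8% of all genes lower and 12.7% higher. Wild-type replicate 1, which had the lowest B cell marker sum, had the most Bbc3 and Bcl2l11.

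Bid (ENSMUSG00000004446; chromosome 6, 120891930 to 120916853, minus strand) encodes the protein that caspase-8 cleaves to link death receptors to mitochondria. Levels were 9.52, 11.2 and 11.4 CPM for Nfkb2-/- and 16.6, 11.3 and 14.1 CPM for wild type. The highest Nfkb2-/- library lay just above the lowest wild-type library, and the log2 fold change was -0.39 (SE 0.201, 95% interval -0.85 to 0.08, edgeR adjusted p = 0.464). Exons of Bid share 628 bases with Bcl2l13 on the other strand, and unstranded counts cannot tell the genes apart there.

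**Figure D2:**
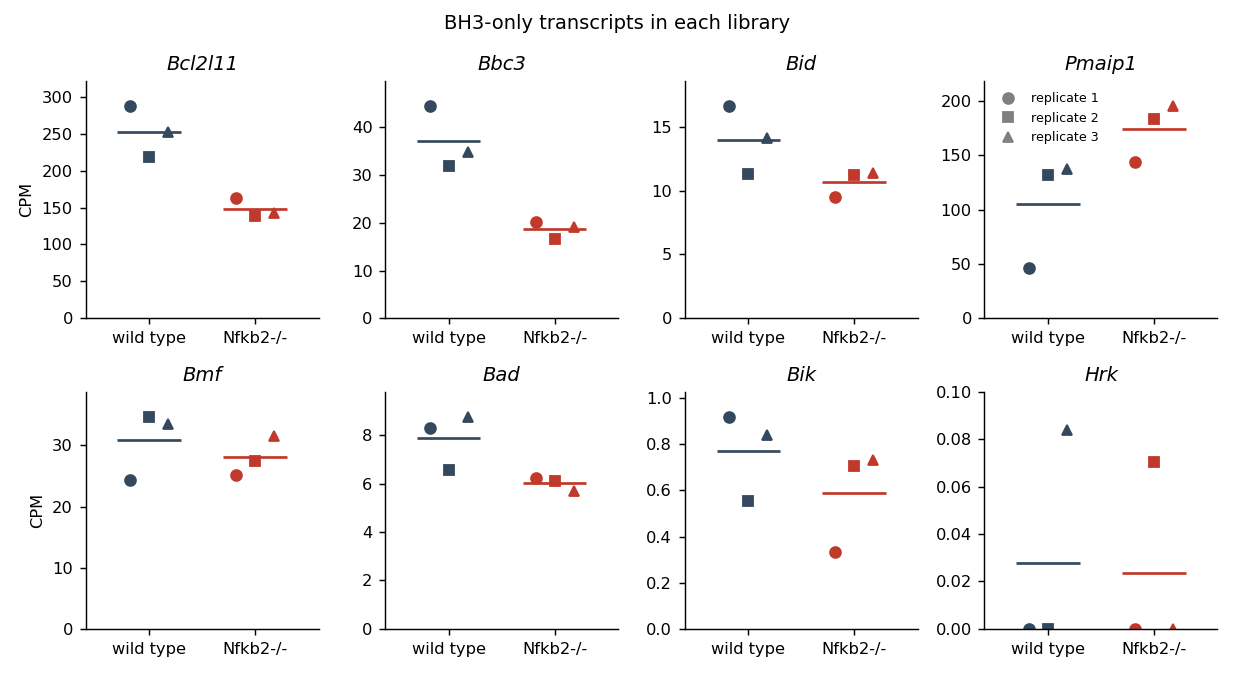
CPM of the 8 BH3-only genes (panels, each with its own axis from 0) in 3 wild-type and 3 Nfkb2-/- libraries; points are libraries, shaped by replicate number, and horizontal lines are means. The genotypes do not overlap for Bcl2l11, Bbc3, Bad and Pmaip1, and wild-type replicate 1 is the highest library for Bcl2l11 and Bbc3 and the lowest for Pmaip1.

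Among the sensitizers, Pmaip1 differed in the opposite direction and was not called. Pmaip1 (ENSMUSG00000024521; chromosome 18, 66458533 to 66465565, plus strand) encodes NOXA, which binds MCL-1 and promotes its loss. Its level was 144, 183 and 195 CPM for Nfkb2-/- against 46.2, 132 and 137 CPM for wild type. Every Nfkb2-/- library was above every wild-type library, by 7.23 CPM at the closest, and wild-type replicate 1 was far below the other wild-type libraries. The log2 fold change was 0.73 (SE 0.368, 95% interval -0.12 to 1.58, edgeR adjusted p = 0.449), and without wild-type replicate 1 it was 0.37 (edgeR adjusted p = 0.0984). With the B cell marker level as a covariate it was 1.33 and passed the threshold (edgeR adjusted p = 9.18e-06).

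Bmf encodes a protein that is held at the cytoskeleton and released under stress, and Bad encodes a protein that growth factor signalling inactivates. Bmf (ENSMUSG00000040093; chromosome 2, 118528757 to 118549687, minus strand) stood at 25.2, 27.5 and 31.5 CPM for Nfkb2-/- and 24.4, 34.6 and 33.4 CPM for wild type. The ranges overlapped, with the lowest library of all a wild-type library, and the log2 fold change was -0.13 (SE 0.18, 95% interval -0.55 to 0.28, edgeR adjusted p = 0.819). Its sign turned to positive, at 0.10 and 0.02, with the Y-linked and the B cell marker level as a covariate.

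Bad (ENSMUSG00000024959; chromosome 19, 6941861 to 6951899, plus strand) stood at 6.21, 6.12 and 5.70 CPM for Nfkb2-/- and 8.31, 6.57 and 8.74 CPM for wild type. The genotypes were apart by only 0.362 CPM, and the log2 fold change was -0.39 (SE 0.209, 95% interval -0.87 to 0.09, edgeR adjusted p = 0.491). Bad is on the chromosome of Nfkb2, 39.4 Mb from it, and shares 524 exon bases with Gpr137 on the other strand.

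Bik and Hrk, genes known mainly from epithelial and neuronal cells, were at the edge of detection. Bik (ENSMUSG00000016758; chromosome 15) had 4, 10 and 9 counts for Nfkb2-/- against 17, 7 and 10 for wild type. After scaling, the ratio of Nfkb2-/- to wild type was 0.756 (exact 95% interval 0.425 to 1.32, counting error only). Hrk (ENSMUSG00000046607; chromosome 5) had 1 count in Nfkb2-/- replicate 2, 1 in wild-type replicate 3 and 0 in the other libraries. That is below 3 counts in either genotype, so no ratio is given, and a difference was not detectable at this depth.

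Counting ranges alone, 3 of the 6 tested genes (Bcl2l11, Bbc3 and Bad) had every Nfkb2-/- library below every wild-type library, as did 9.9% of all genes tested. Pmaip1 was the reverse, as were 10.7% of all genes. The median log2 fold change of the 6 genes was -0.39, against -0.03 over all genes tested.

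**Figure D3:**
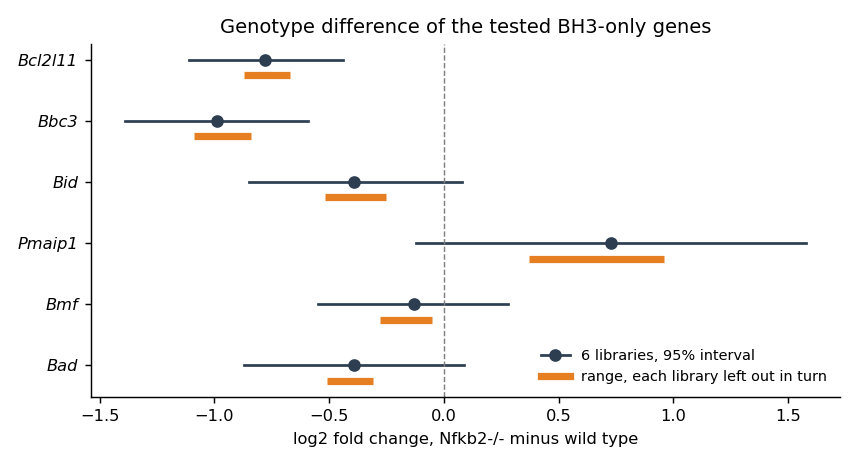
Log2 fold change (Nfkb2-/- minus wild type) of the 6 tested BH3-only genes, with its 95% interval in black and, in orange, the range with each library left out in turn. The intervals of Bcl2l11 and Bbc3 lie below 0, those of the other 4 genes include 0, and no orange range crosses 0.

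Per length, the family was dominated by Pmaip1, Bcl2l11 and Bbc3. In levels divided by kilobases of annotated exon, the Nfkb2-/- order was Pmaip1 (63.7 ± 9.76 CPM per kilobase, SD, n = 3), Bcl2l11 (18.4 ± 1.64), Bbc3 (8.79 ± 0.836), Bmf (5.34 ± 0.613), Bid (3.01 ± 0.291), Bad (2.35 ± 0.106) and Bik (0.37 ± 0.141), with Hrk last. No neighbours in that order overlapped over the 3 libraries. In wild type the order of means was the same, but Pmaip1 (16.9 to 50.1 CPM per kilobase) overlapped both Bcl2l11 (27.1 to 35.7) and Bbc3 (15.1 to 20.9). Bcl2l11 and Bbc3 did not overlap there, while Bmf (4.65 to 6.58) overlapped Bid (3.19 to 4.66), and Bid overlapped Bad (2.57 to 3.41). Divided by the longest transcript instead, wild-type Bcl2l11 (50.1 ± 6.85) came before Pmaip1 (38.5 ± 18.7).

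Whether the family's sum separated the genotypes depended on the scale. In CPM the 8 genes summed to 368, 383 and 405 for Nfkb2-/- against 428, 435 and 481 for wild type, with no overlap. Per kilobase of exon, where Bcl2l11, the longest of the 8, weighs less, the sums were 92.5, 103 and 110 against 86.7, 103 and 112 CPM per kilobase, and the genotypes overlapped. The 3 activators summed to 192, 166 and 172 CPM for Nfkb2-/- against 348, 261 and 301 CPM for wild type, with no overlap. The 5 sensitizers summed to 176, 217 and 233 CPM for Nfkb2-/- against 79.8, 174 and 180 CPM for wild type, and the ranges overlapped between 176 and 180. Bcl2l11 made up 35.0% to 44.2% of the family's CPM in Nfkb2-/- and 50.1% to 67.1% in wild type. The ratio of Pmaip1 to Bcl2l11 CPM was 0.886, 1.33 and 1.37 in Nfkb2-/- and 0.161, 0.605 and 0.542 in wild type. These sums and ratios were not tested, since they follow from genes chosen with their differences known.

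**Figure D4:**
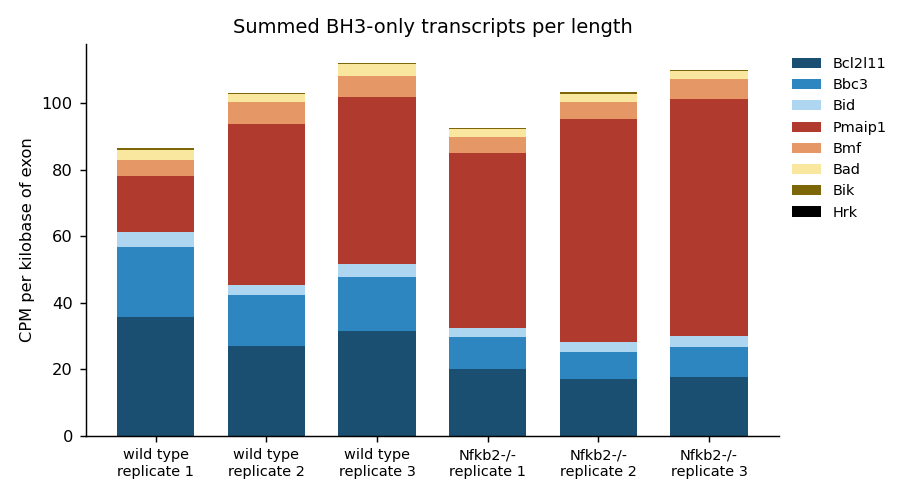
Stacked levels of the 8 BH3-only genes in CPM per kilobase of exon for each of the 6 libraries, activators in blue and sensitizers in warm colours. The bar heights of the genotypes overlap (86.7 to 112 and 92.5 to 110), while the blue parts are smaller in the 3 Nfkb2-/- libraries.

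The proteins that BH3-only proteins bind gave no called gene in the edgeR fit. Of 8 pro-survival genes, 6 were tested and 4 of them had a positive log2 fold change, against 6012 of all 13347 genes tested. An unadjusted p under 0.05 was found for 2, against 13.6% of all genes. DESeq2 called 1 higher and 1 lower (3.21% and 1.89% of all genes), and limma-voom and the blocked fit 0. Without wild-type replicate 1 edgeR called 1 higher and 2 lower (4.6% and 4.44% of all genes). Bcl2l1, which encodes BCL-XL, was at 108, 129 and 156 CPM for Nfkb2-/- and 86.4, 78.5 and 74.6 CPM for wild type (log2 fold change 0.72, edgeR adjusted p = 0.0795). Mcl1 was at 380, 366 and 388 CPM against 484, 505 and 518 CPM (log2 fold change -0.41, edgeR adjusted p = 0.173). Neither gene's genotypes overlapped, and the larger values lay with Nfkb2-/- for Bcl2l1 and with wild type for Mcl1. Of all genes tested, 10.7% had every Nfkb2-/- library above every wild-type library and 9.9% had the reverse. Both genes were named for the smallest p of their list in this same comparison, so that separation supports nothing further.

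Bcl2 itself measured 113, 94.5 and 92.7 CPM for Nfkb2-/- and 39.4, 135 and 147 CPM for wild type, with replicate 1 of the latter the lowest library. The ratio of Bcl2l11 to Bcl2 CPM was therefore 7.28 in wild-type replicate 1, 1.62 and 1.71 in the other wild-type libraries and 1.44 to 1.53 in Nfkb2-/-. The summed BH3-only level divided by the summed pro-survival level, both per kilobase, was 0.472 to 0.488 in Nfkb2-/- and 0.43 to 0.492 in wild type. The near-identical Bcl2a1 paralogs add to the pro-survival sum, and their separate counts are uncertain. Of the pore formers, Bax and Bak1 had log2 fold changes of 0.02 (SE 0.148) and 0.20 (SE 0.143), and Bok was not tested.

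**Figure D5:**
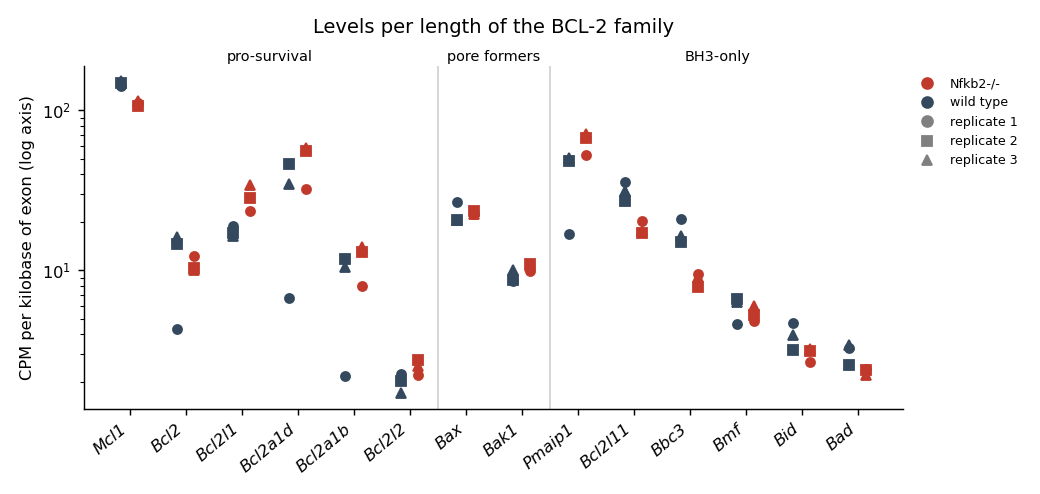
CPM per kilobase of exon, on a log axis, of tested pro-survival, pore-forming and BH3-only genes in each library (wild type dark, Nfkb2-/- red, replicates by shape). Mcl1 is the highest gene, and wild-type replicate 1 is apart from the other wild-type libraries for Bcl2, Bcl2a1d, Bcl2a1b and Pmaip1.

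Downstream of the mitochondrial step, 1 of 21 caspase, apoptosome and inhibitor genes was called higher and 0 lower (median log2 fold change 0.02, against -0.03 over all genes). It was Birc2, which encodes the inhibitor cIAP1, at 364 ± 21.1 CPM for Nfkb2-/- against 176 ± 35.7 for wild type (SD, n = 3 each; edgeR adjusted p = 0.0319). DESeq2 called 3 of these genes higher, the blocked fit 2, and edgeR without wild-type replicate 1 called 3, where these fits called 3.21%, 1.47% and 4.6% of all genes higher. In a list of 4 genes with a BH3-like stretch 0 were called by edgeR, DESeq2 or limma-voom and 0 had an unadjusted p under 0.05. Among them Bnip3l, a mitophagy receptor, had a log2 fold change of -0.19 and Huwe1, a ubiquitin ligase of MCL-1, 0.23.

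Of 19 transcription factors listed as regulators of BH3-only genes, 18 were tested, 0 were called higher and 1, Nfkb2 itself, was called lower. The blocked fit called 1 higher and 1 lower (1.47% and 0.697% of all genes), and DESeq2 2 and 1 (3.21% and 1.89%). Without wild-type replicate 1 edgeR called 2 and 4 (4.6% and 4.44%). An unadjusted p under 0.05 was found for 5 in the main fit, against 13.6% of all genes. Trp53, Foxo1 and Foxo3, named here outside the rule for named genes because their target lists follow, had log2 fold changes of -0.12 (SE 0.141), -0.21 (SE 0.168) and -0.35 (SE 0.145), with overlapping genotypes and edgeR adjusted p of 0.795, 0.676 and 0.349. Of 17 genes whose products modify or tether BH3-only proteins, 0 were called by edgeR, DESeq2 or limma-voom. Without wild-type replicate 1 edgeR called 1 of them lower (4.44% of all genes). In the main fit 2 had an unadjusted p under 0.05, which is near the 13.6% of all genes. The 2 with the smallest p, Ppp3ca, a calcineurin subunit that acts on BAD, and Mapk9, the kinase JNK2, had log2 fold changes of -0.33 and -0.43.

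Other p53 targets did not give a called gene in edgeR: 0 of 21 tested, with 5 at an unadjusted p under 0.05 (13.6% of all genes). Their log2 fold changes were positive for 13 and negative for 8, with a median of 0.09. Over all 13347 genes tested, 6012 were positive and 7335 negative, with a median of -0.03. DESeq2 called 5 higher and 0 lower (3.21% of all genes higher), limma-voom 0, the blocked fit 1 higher, and edgeR without wild-type replicate 1 called 7 higher and 1 lower (4.6% and 4.44% of all genes). Perp, a membrane protein of apoptosis, was at 7.37 ± 2.07 CPM for Nfkb2-/- against 3.0 ± 0.62 for wild type (SD, n = 3 each), with a log2 difference of 1.30 (edgeR adjusted p = 0.0923). Cdkn1a, the cell cycle inhibitor p21, measured 174 ± 15.6 and 75.0 ± 31.6 CPM, with a log2 fold change of 1.22 (edgeR adjusted p = 0.105).

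Of 16 FOXO targets known in T cells, edgeR called 0, while 10 had a negative log2 fold change, near the 55.0% of all genes. An unadjusted p under 0.05 was found for 8, against 13.6% of all genes, and the median log2 fold change was -0.23 against -0.03. DESeq2 called 4 lower (1.89% of all genes), the blocked fit 3 (0.697%) and edgeR without wild-type replicate 1 called 3 (4.44%), and limma-voom called 0. Pik3ip1, an inhibitor of PI3K, was at 22.3 ± 7.95 CPM for Nfkb2-/- against 47.9 ± 8.23 for wild type (SD, n = 3 each), with a log2 difference of -1.11 (edgeR adjusted p = 0.099). Fbxo32, a ubiquitin ligase subunit, measured 38.5 ± 1.98 and 59.2 ± 8.88 CPM, with a log2 fold change of -0.62 (edgeR adjusted p = 0.102). Both lay below wild type in every Nfkb2-/- library, as did 9.9% of all genes tested. They were named for the smallest p of the list in this same comparison, so that separation supports nothing further. The B cell marker sum and Xist differed between the same libraries, and their part in these lists was not tested.

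The genes whose levels followed Bcl2l11 and Bbc3 most closely over the 6 libraries were named by the root-mean-square distance between log2 CPM values, each gene centred on its own mean, among 7918 protein-coding genes with at least 10 CPM. For Bcl2l11 they were Als2cl (0.0493), Ms4a4b (0.0665), Ugcg, a glucosylceramide synthase (0.0677), and Patj (0.0763), where the median gene was 0.446 away. For Bbc3 they were Rcan3, a calcineurin regulator (0.0818), Satb1, a chromatin organiser (0.092), Ms4a4b (0.0921) and Foxp1, a factor of T cell quiescence (0.0938), against a median of 0.542. Bbc3 and Bcl2l11 were 0.123 apart, which placed Bcl2l11 at rank 9 for Bbc3 and Bbc3 at rank 23 for Bcl2l11. The lists rest in part on wild-type replicate 1: without it, 1 of the 4 genes nearest to Bbc3 and 0 of the 4 nearest to Bcl2l11 stayed among the nearest 4.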

How the data were processed

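RNA was counted in 3 Nfkb2-/- and 3 wild-type libraries. The deposited values are whole-number read counts per Ensembl gene, not normalized, and FastQC, HISAT2, HTSeq, DESeq2 and GRCm38 are named in the submitters' processing notes without versions. For HTSeq, the treatment of shared reads and the strand setting were not given in the sources used here. The library preparation was unstranded (TruSeq), according to the series' design text.

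Symbols, positions and exon lengths came from GENCODE M21 (GRCm38), which matched 55480 of 55573 identifiers. The main test was edgeR 4.0.16 in R 4.3.3 (filterByExpr, TMM, robust quasi-likelihood, genotype as the only term), with Benjamini-Hochberg adjustment over all 13347 genes tested. Standard errors are the log2 fold change over the root of its F statistic. The code was tested on simulated data. DESeq2 1.42.0, limma-voom (limma 3.58.1), other scalings and filters, a replicate block, covariates and leaving out each library were alternatives.

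The genes described, the lists and the tests were chosen with earlier results of these data known. Named genes are the 8 members, Nfkb2, up to 4 called genes of each list (otherwise the 2 with the smallest p), and the 4 genes most like Bbc3 and Bcl2l11. Same-numbered libraries had deviations from the genotype means that correlated at 0.364, 0.267 and 0.111, each over 0.1. However, Nfkb2-/- replicate 3 correlated better with wild-type replicate 2 (0.251) than with its own number. The main test did not use the replicate numbers, and a pairing by number entered only the replicate block, an alternative. The labels call the libraries biological repeats but tie none to an animal, so p-values measure the spread between these libraries, which may be partly technical. Intervals from counts cover counting error only. Figures used matplotlib 3.10.9.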

Additional observations from a re-analysis of the deposited data

How the results depend on the processing

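Bad, Bid and Pmaip1 kept their direction in all 15 alternatives, as did Bbc3 and Bcl2l11, and the values that turned were those of Bmf, to 0.10 with the Y-linked and 0.02 with the B cell covariate; the cause was not tested. With the B cell covariate Bid (-0.48, edgeR adjusted p = 0.0481) and Pmaip1 passed the threshold, so 1 BH3-only gene was called higher and 3 lower. The number of BH3-only genes called lower was 0 with the Y-linked covariate and 0 to 2 with each library left out in turn. Over all genes, called higher and lower were 135 and 54, and became 292 and 174 with no count filter, 428 and 252 by DESeq2, 196 and 93 with the replicate block, 6 and 1 with the Y-linked and 1697 and 1581 with the B cell covariate. With each library left out they ran from 6 to 628 and from 1 to 606. Over the pathway lists, 1 higher and 1 lower became 6 and 3 with no count filter, 11 and 6 by DESeq2, 4 and 4 with the replicate block, 0 and 0 with the Y-linked covariate and 21 and 14 with the B cell covariate, and ran from 0 to 13 and from 0 to 11 with each library left out. The replicate block changed no call among the BH3-only genes (Bbc3 -0.98, edgeR adjusted p = 0.0332; Bcl2l11 -0.77, 0.0354). Dividing by the longest transcript moved 2 places in the order of levels. Depth limits Bik and Hrk, and the 3 libraries a genotype limit the rest.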

Other observations

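The genes nearest to Pmaip1 over the 6 libraries were looked up after its values were seen. By the same distance between centred log2 CPM values, the nearest of 7918 genes was Nr4a2, an orphan nuclear receptor, at 0.0406, followed by Ier5l (0.101), Traf4, an adaptor of TNF receptors (0.103), and Rgs16, a regulator of G protein signalling (0.106). The median gene was 0.706 away, and Bbc3 and Bcl2l11 were at 1.14 and 1.04. Nr4a2 was at 497, 627 and 656 CPM in Nfkb2-/- replicates 1 to 3 and at 158, 442 and 499 CPM in wild-type replicates 1 to 3. Wild-type replicate 1 was the lowest library for Nr4a2 and for Pmaip1. Log2 fold changes were 0.70, 0.54, 0.70 and 0.58 in that order of genes, and edgeR called none of the 4 (adjusted p = 0.5, 0.612, 0.391 and 0.628). Without wild-type replicate 1, Nr4a2 was at rank 7, with a distance of 0.0442, and Ier5l at rank 134.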
